A study of Patiria miniata with 16 samples.

Results

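The genes described here are caspase-7-like (LOC119735747) and bcl-2-like protein 1 (LOC119742144) of the bat sea star Patiria miniata, 2 of the 27818 genes counted. Both were chosen by name from earlier results of the same libraries, in which each was higher in embryos collected in beta-aminopropionitrile (BAPN), so those differences are given below as a description with no test. BAPN inhibits the lysyl oxidases, the enzymes that cross-link collagen. PolyA RNA of pooled whole wild type embryos was sequenced in 16 libraries, 2 in each of 8 groups. Control groups without BAPN were collected at day 2, day 3 and day 4. The BAPN groups had the drug from hatched blastula until day 2, from hatched blastula until day 4, from mid gastrula until day 3, or from mid gastrula until day 4. Recovery embryos had BAPN from hatched blastula until day 2 and none from then until collection at day 4. Each group that received BAPN holds 1 library at 1.2 mM and 1 at 0.8 mM, so its spread contains any effect of dose. Nothing in the labels ties the 2 libraries of a group to separate cultures, so that p-values cover only the spread among these libraries, which may be technical.

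Caspases are proteases that cut their targets after aspartate and carry out apoptosis. In vertebrates, initiator caspases such as caspase-8 and caspase-9 are activated on adaptor complexes and then cleave executioners such as caspase-3 and caspase-7. Proteins of the BCL-2 family act at the outer membrane of the mitochondrion: the BCL2L1 product BCL-XL keeps cells alive by holding BAX and BAK in check, and BAX and BAK open the membrane and release cytochrome c. Caspases are made as inactive precursors, so RNA level is a measure of the gene's transcript and not of enzyme activity. Roles given below are those of the vertebrate proteins whose names the annotation transferred by similarity, unless another animal is named.

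Caspase-7-like lies on scaffold NW_024037068.1 of the Pmin_3.0 assembly, from 649869 to 654816 on the minus strand, with 2 annotated transcripts. The deposited table gives it a caspase domain as its one Pfam domain and human caspase-7 as its best Swiss-Prot match. Bcl-2-like protein 1 lies on NW_024037072.1 from 6144361 to 6184450, also on the minus strand, with 5 annotated transcripts, the Bcl-2 family domain and no Swiss-Prot match. Their spans of 4948 and 40090 bases hold counted lengths of 1736 and 3281 bases. Over all libraries caspase-7-like collected 5513 counts and bcl-2-like protein 1 collected 30257. By mean CPM, the depth-scaled count after TMM scaling, they ranked 5470 and 1125 of the 27818 genes.

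Total counts ran from 9945801 to 14383817 per library. The TMM scaling factors lay between 0.874 and 0.987 in embryos collected in BAPN and were 0.994 to 1.143 in the controls and 1.067 to 1.121 in recovery. Ribosomal RNA genes took 3.204% of counts in day 4 control replicate 2, 2.019% and 1.342% in the recovery libraries, and under 1% in the others. Summed markers also moved with the treatment. The 48 immune mesenchyme markers, 38 of them with counts, summed to 517.1 to 653.7 CPM in controls, 868.9 to 2242 CPM in BAPN and 656.9 to 689 CPM in recovery, while the 6 muscle markers summed to 1717 to 3304, 626 to 1003 and 2263 to 2313 CPM. The 15 cilia markers summed to 2635 to 4828, 1239 to 2980 and 3997 to 4065 CPM, and the 22 nerve markers to 1108 to 1399, 632 to 1051 and 1186 to 1233 CPM. The part of these shifts in the levels of both genes was not tested, and in pooled whole embryos fewer cells of a type and less RNA per cell cannot be told apart.

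Caspase-7-like was at or near 0 in young controls and abundant in BAPN. It had 0 counts in both day 2 controls, 1.10 and 0.805 CPM in the day 3 controls, and 15.9 and 11.1 CPM in the day 4 controls. With BAPN from blastula to day 2 it reached 34.2 and 31.3 CPM, and from gastrula to day 3 it reached 29.3 and 29.7 CPM. At day 4 it stood at 82.5 and 75.0 CPM after the blastula start and at 106.9 and 78.6 CPM after the gastrula start. All 8 libraries collected in BAPN, at 29.3 to 106.9 CPM, lay above the other 8, at 0 to 15.9 CPM.

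In order of mean level, caspase-7-like ran from the day 2 controls through recovery, the day 3 and day 4 controls, gastrula to day 3, blastula to day 2 and blastula to day 4 to gastrula to day 4. Only the last pair of neighbours in this order had libraries that overlapped. The means were 0.950 ± 0.205 CPM (SD, n = 2) in day 3 controls, 13.5 ± 3.42 CPM in day 4 controls, 32.8 ± 2.10 CPM for blastula to day 2, 29.5 ± 0.281 CPM for gastrula to day 3, 78.7 ± 5.36 CPM for blastula to day 4 and 92.7 ± 19.98 CPM for gastrula to day 4. As a description of the groups the gene was chosen on, it was at least 245-fold higher in blastula to day 2 than in day 2 controls, with the controls set to a floor of 3 counts over the group; the bound is 116-fold without day 2 control replicate 1 and 129-fold without replicate 2. The edgeR log2 difference was 4.93 ± 0.28 (SE) for gastrula to day 3, 2.54 ± 0.22 for blastula to day 4 and 2.78 ± 0.22 for gastrula to day 4, or 30.5-, 5.83- and 6.87-fold. The fold excess over controls was thus smaller at day 4, when the control mean had risen to 13.5 CPM. The gap in CPM was wider at day 4 than in the earlier windows.

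Bcl-2-like protein 1 was measured well above 0 in every library. Controls held 32.5 and 22.9 CPM at day 2, 40.0 and 38.1 CPM at day 3, and 54.4 and 65.0 CPM at day 4. In BAPN it stood at 194.5 and 192.8 CPM for blastula to day 2, 226.6 and 238.8 CPM for gastrula to day 3, 324.8 and 268.5 CPM for blastula to day 4, and 445.6 and 410.7 CPM for gastrula to day 4. The lowest library collected in BAPN was at 192.8 CPM and the highest of the other 8 at 65.0 CPM. The order of mean levels was day 2 controls, day 3 controls, recovery, day 4 controls, blastula to day 2, gastrula to day 3, blastula to day 4 and gastrula to day 4, and no neighbours in it had overlapping libraries.

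Its excess over controls, also a description, lay between 4.97- and 7.17-fold in every window. The log2 difference was 2.80 ± 0.16 for blastula to day 2, 2.58 ± 0.15 for gastrula to day 3, 2.31 ± 0.15 for blastula to day 4 and 2.84 ± 0.15 for gastrula to day 4. Averaged over the 3 windows that have same-day controls named in the labels, it was 2.56 ± 0.09, or 5.91-fold. Across all tested genes in that mean comparison, 28.1% were called higher and 30.1% lower at an adjusted p under 0.05 (edgeR quasi-likelihood, Benjamini-Hochberg), with a median log2 difference of -0.073. Both genes were chosen with this comparison known, so nothing is read from where they stand against that background.

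**Figure D1:**
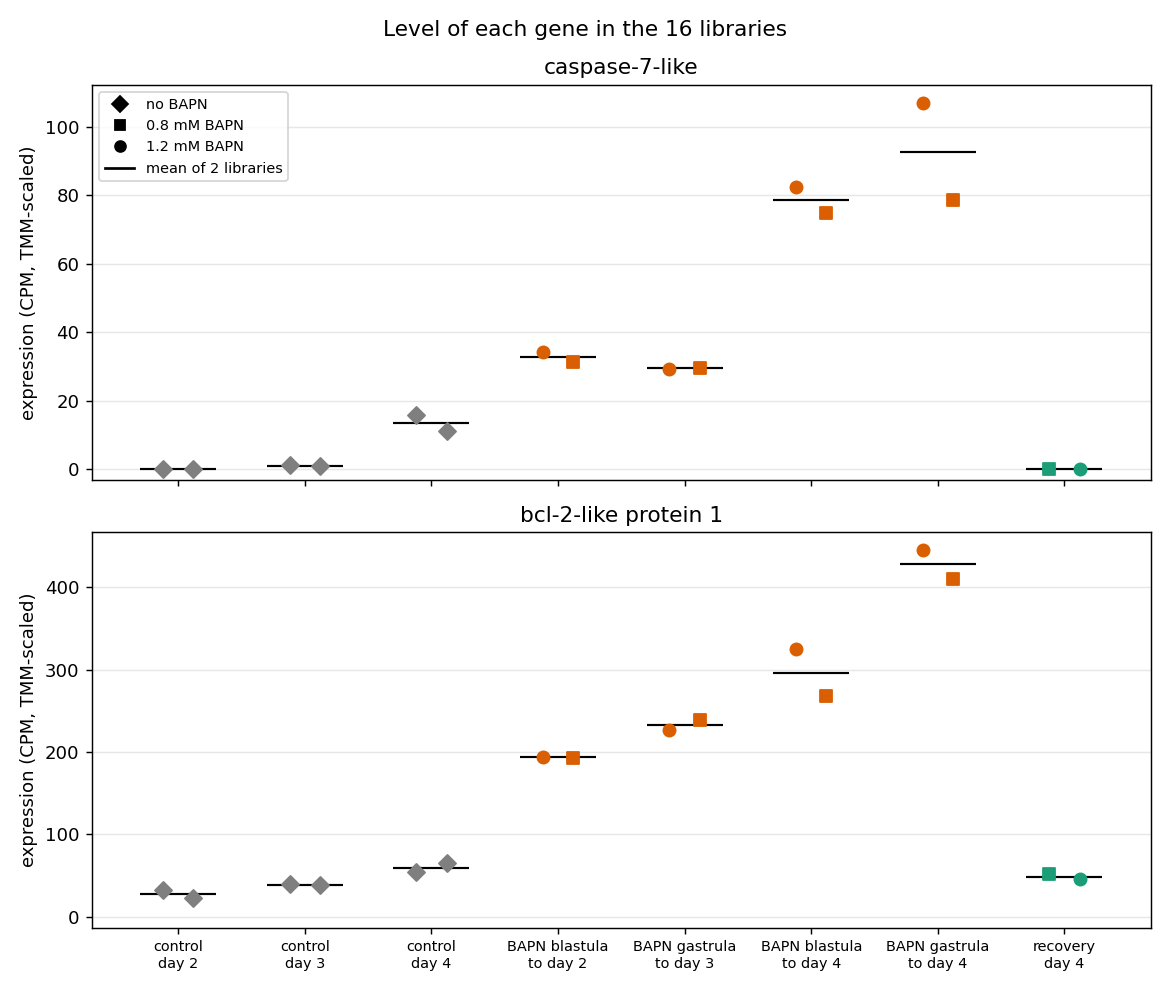
Level of each gene in each library as TMM-scaled CPM on linear axes, by group; symbols give the BAPN dose and lines the mean of 2 libraries. The libraries collected in BAPN, at 29.3 to 106.9 CPM for caspase-7-like and 192.8 to 445.6 CPM for bcl-2-like protein 1, all lie above the controls and the recovery libraries.

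The plot of levels by library shows the recovery libraries at control level or below in both panels. The genes were chosen on BAPN comparisons, which do not include recovery. The recovery comparisons were still written with earlier results of these data known. Caspase-7-like had 1 count in each recovery library, 0.0751 and 0.0782 CPM, against 129 and 194 counts in the day 4 controls. The recovery libraries held 177-fold less than these controls (95% counting interval 48.5 to 1460; edgeR adjusted p = 3.37e-10), in a comparison that called 15.9% of all genes. Against embryos kept in BAPN from blastula to day 4 the level was 1030-fold lower (284 to 8480; edgeR adjusted p = 6.9e-14), where 48.6% of genes were called. Against blastula to day 2, the day on which the drug was removed, it was 429-fold lower (118 to 3550; edgeR adjusted p = 1.27e-12), where 42.4% of genes were called. The BAPN and control libraries in these comparisons had been used to choose the gene. Intervals cover counting error only, and reads were not identified as separate molecules.

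Recovery was also set against the day 3 controls, a comparison chosen after its values had been seen. Caspase-7-like was 12.5-fold lower in recovery (3.17 to 108; edgeR adjusted p = 0.0119), with 2 counts in all against 30. Over all genes, recovery differed from the day 3 controls in 114 and from the day 4 controls in 2789. Against the day 2 controls, the comparison came to 2 counts against 0, and no fold is given. Recovery embryos, labelled day 4, thus held less caspase-7-like RNA than either the day 3 or the day 4 controls.

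Bcl-2-like protein 1 stood at 52.0 and 45.5 CPM in recovery, between the day 3 and the day 4 controls. It was lower than in blastula to day 4 by a log2 difference of -2.60 ± 0.15 (edgeR adjusted p = 7.21e-12) and lower than in blastula to day 2 by -1.99 ± 0.15 (edgeR adjusted p = 5.57e-10). These comparisons called 48.6% and 42.4% of genes. The BAPN and control libraries set against recovery here had been used to choose this gene as well. The difference from day 4 controls was -0.29 ± 0.15, with a 95% interval from -0.60 to 0.02, and did not pass the test (edgeR adjusted p = 0.226). Against the day 3 controls the difference was 0.32 ± 0.15 and did not pass the test either (edgeR adjusted p = 0.783). Its 95% interval, not adjusted for the number of genes, ran from 0.008 to 0.633.

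Within BAPN, both genes rose with time in the drug. Caspase-7-like rose from day 2 to day 4 after the blastula start by 1.26 ± 0.21 on the log2 scale (edgeR adjusted p = 8.19e-05), in a comparison that called 29.9% of genes. After the gastrula start it rose from day 3 to day 4 by 1.65 ± 0.21 (edgeR adjusted p = 2.02e-05), where 10.8% were called. Bcl-2-like protein 1 rose by 0.62 ± 0.14 (edgeR adjusted p = 0.00245) and 0.88 ± 0.14 (edgeR adjusted p = 0.000265) in the same comparisons. In each case both later libraries lay above both earlier ones, a description on 2 libraries per group. Age and time in the drug cannot be told apart.

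At day 4 the blastula start was also compared with the gastrula start, where the stage at which BAPN began and the time spent in it cannot be told apart. Bcl-2-like protein 1 was lower after the blastula start than after the gastrula start by a log2 difference of -0.53 ± 0.14 (edgeR adjusted p = 0.0155), in a comparison that called 14.2% of genes. That call was lost without blastula to day 4 replicate 2, at -0.40, or gastrula to day 4 replicate 1, at -0.47. The libraries of the groups did not overlap, which carries little weight with 2 libraries in each. Caspase-7-like differed by -0.24 ± 0.20, with an interval from -0.65 to 0.18 (edgeR adjusted p = 0.482), and its libraries overlapped.

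Controls gained both transcripts as they aged. Caspase-7-like was at least 7.12-fold higher in day 3 than in day 2 controls (edgeR adjusted p = 0.000255), a bound that is 3.32-fold without day 2 control replicate 1 and 3.76-fold without replicate 2. It rose by a further 3.80 ± 0.29 on the log2 scale, or 14-fold, from day 3 to day 4 (edgeR adjusted p = 1.16e-08). Bcl-2-like protein 1 rose by 0.49 ± 0.15 (edgeR adjusted p = 0.0323) and by 0.61 ± 0.15 (edgeR adjusted p = 0.00734). These comparisons called 16.4% and 13.7% of genes. The first rise of bcl-2-like protein 1 was lost without day 2 control replicate 2 (adjusted p = 0.379), day 3 control replicate 1 (0.172) or day 3 control replicate 2 (0.101). The second was lost without day 3 control replicate 1 (0.0572), day 3 control replicate 2 (0.102) or day 4 control replicate 2 (0.14), and when libraries were scaled by total counts only (0.0506).

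The size of the BAPN difference was also compared between day 2 and day 4 after the blastula start. For caspase-7-like the day 4 minus day 2 value was -5.39 on the log2 scale, a bound (-4.28 without day 2 control replicate 1 and -4.47 without replicate 2) given as a description only, since the day 2 comparison was among those the gene was chosen on. Bcl-2-like protein 1 gave -0.49 ± 0.21, and -0.74 without day 2 control replicate 1. It was chosen on the BAPN comparisons too, so these values are likewise a description only. The comparison called 27.5% of all genes.

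Dose was compared inside groups over the 10 libraries that received BAPN. At 1.2 mM against 0.8 mM, caspase-7-like differed by 0.178 ± 0.124 on the log2 scale, with a 95% interval from -0.078 to 0.434 (edgeR adjusted p = 0.851). Its largest gap was in gastrula to day 4, at 0.443, and its gap in gastrula to day 3 was -0.019. Bcl-2-like protein 1 differed by 0.031 ± 0.085, with an interval from -0.144 to 0.207 (edgeR adjusted p = 0.987). Over all genes 0.0228% were called for dose. Of the 10 libraries, 6 have a control named in the labels, and both genes were higher in each of these 6 than in that control. The genes were chosen on the BAPN comparisons of these libraries, so the pair values are a description only. Caspase-7-like was higher by 26.7- and 36.9-fold at day 3 and by 7.46-fold (1.2 mM) and 4.72-fold (0.8 mM) at day 4. Bcl-2-like protein 1 was higher by 4.94- to 8.43-fold over 6 of 6 pairs.

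**Figure D2:**
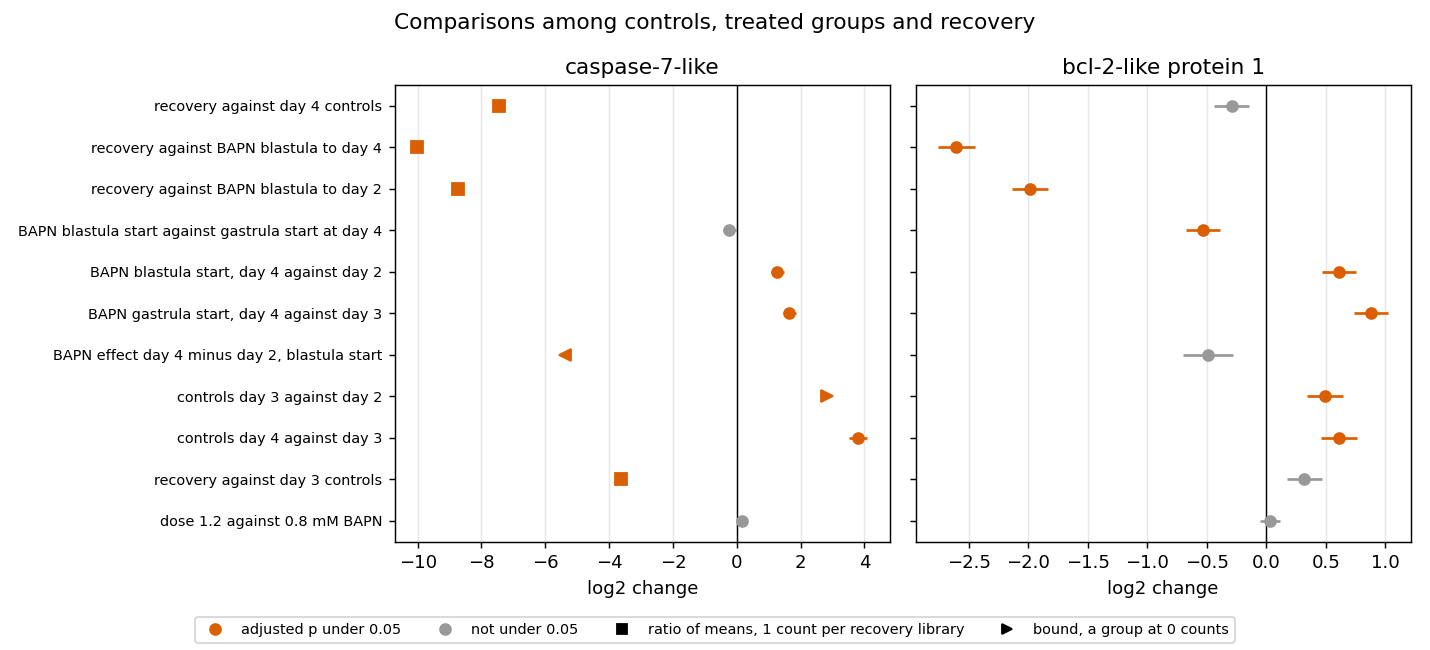
Log2 change of each gene in the comparisons for which a test or bound is given, with horizontal lines for 1 SE; squares are ratios of group means where recovery holds 1 count per library, and triangles are bounds against a group at 0 counts. Caspase-7-like spans recovery ratios down to 1030-fold lower and a dose difference of 0.178, while bcl-2-like protein 1 runs from -2.60 to 0.88; the 2 panels have different scales.

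The plot of comparisons sets these changes side by side: the recovery ratios of caspase-7-like lie far left of zero, and the dose estimates of both genes lie near it. The balance of both transcripts also changed from group to group. Per length, the ratio of bcl-2-like protein 1 to caspase-7-like was 19.3 and 25.0 in day 3 controls and 1.81 and 3.11 in day 4 controls. In BAPN it was 3.00 and 3.26 for blastula to day 2, 4.09 and 4.26 for gastrula to day 3, 2.08 and 1.90 for blastula to day 4, and 2.21 and 2.76 for gastrula to day 4. In recovery, on 1 count of caspase-7-like per library, it was 367 and 308. No ratio could be formed in day 2 controls. Bcl-2-like protein 1 was the more abundant per length in all 14 libraries with a ratio.

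**Figure D3:**
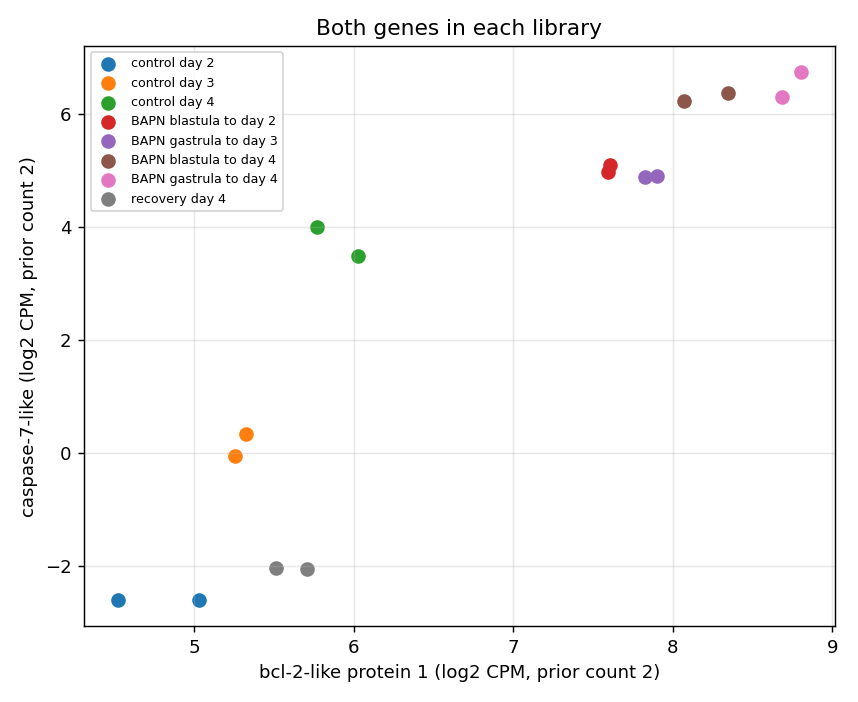
Each point is 1 library, with the log2 CPM (prior count 2) of bcl-2-like protein 1 on the horizontal axis and of caspase-7-like on the vertical axis, coloured by group. The 8 libraries collected in BAPN sit at the upper right; the recovery libraries have bcl-2-like protein 1 levels near the day 3 and day 4 controls but lie near the day 2 controls on the vertical axis.

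In the plot of both genes, the correlation of their log2 CPM over the 16 libraries was 0.911 (Pearson). It describes separate clusters of libraries that share treatment, and by this measure bcl-2-like protein 1 ranked 236 among 10726 genes compared with caspase-7-like. The recovery libraries depart from a common order, low for caspase-7-like and at control level for bcl-2-like protein 1.

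Among the other apoptosis genes, lists by product name held 83 genes, of which 67 passed the filter on low counts. The lists were written with earlier results of these data known. In the mean BAPN comparison 25 of the 67 rose and 17 fell, with a median log2 change of 0.22, beside 28.1% and 30.1% of all genes. Scaled by total counts only, the balance turned to 20 higher and 21 lower, and the median of all genes moved from -0.073 to -0.295. Without the 2 genes chosen, 23 of 65 rose and 17 fell.

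Of 17 genes named as caspases 11 had counts and 10 were tested. A caspase domain is annotated in 16 of the 17, and in 22 genes in all. Caspase-2-like LOC119734983, called lower, has only a caspase recruitment domain. Caspases moved both ways: 2 were called higher, of which 1 was caspase-7-like itself, and 5 were called lower. Caspase-8-like (LOC119722607), an initiator with a death effector domain, rose by 0.46 ± 0.11 (edgeR adjusted p = 0.00147), and this call was absent when scaling used total counts only, which left 1 caspase higher. Its windows differed in sign, with a mean of 25.8 CPM in day 3 controls against 24.0 CPM in gastrula to day 3. Caspase-3-like LOC119720432, closest to the nematode caspase CED-3 in Swiss-Prot, fell by 1.97 ± 0.19 (edgeR adjusted p = 8.72e-09), with 38.7 and 34.7 CPM in day 2 controls, 8.78 and 7.90 CPM in blastula to day 2, and 1.72 and 3.95 CPM in blastula to day 4. Recovery held 25.0 and 31.0 CPM of that gene. Caspase-3-like LOC119722092 fell by 1.11 ± 0.30, and caspase-3-like LOC119742943, which also carries a caspase recruitment domain, fell by 0.60 ± 0.12. Caspase-2-like LOC119738223 had 0 counts in blastula to day 4.

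The share of caspase RNA held by caspase-7-like changed with it. Per length it made up 0% of the summed caspases in day 2 controls, 0.591% to 0.731% at day 3 and 8.05% to 10.2% at day 4. In BAPN the share was 23.5% to 28.5% for blastula to day 2, 20.4% to 22.1% for gastrula to day 3, 43.1% to 47.6% for blastula to day 4 and 35.5% to 44.6% for gastrula to day 4. It was 0.0522% and 0.0524% in recovery. All other caspases together ran from 49.4 to 86.0 CPM per kilobase over the 16 libraries. At day 2 they summed to 49.4 to 58.8 in BAPN against 67.2 to 84.7 in controls. At day 3 the sums were 59.4 to 66.6 against 78.0 to 85.8. At day 4 controls held 72.8 to 81.0, blastula to day 4 held 52.3 to 57.0 and gastrula to day 4 held 76.55 to 82.1. The total against which the share is taken thus also changed. Caspase-7-like was the most abundant caspase per length in 7 of the 8 libraries collected in BAPN and ranked second in 1 of gastrula to day 3.

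Of 9 BCL-2 family genes 6 were tested, and 3 of them, bcl-2-like protein 1 included, rose; scaling by total counts only kept 3 higher and put 1 lower. Bcl-2-related protein A1-like (LOC119742079), named for a protein that blocks apoptosis, rose by 1.66 ± 0.08 (edgeR adjusted p = 1.51e-13), from 284.1 and 308.4 CPM in day 2 controls to 662.2 and 800.0 CPM in blastula to day 2. The BAK-like gene (LOC119722721), named for a pore former that promotes apoptosis, rose by 1.36 ± 0.12 (edgeR adjusted p = 1.43e-08), with 55.5 and 66.7 CPM in day 4 controls against 368.4 and 201.3 CPM in blastula to day 4. Among the genes called in this family, the BAK-like gene alone is named for promoting cell death. Of all tested genes 28.1% were called higher, and bcl-2-like protein 1 was chosen for its rise. BAX-like (0.14), BOK-B-like (0.32) and the BNIP3-like gene (-0.17) did not pass the test. The Bcl-2 family domain is annotated in 7 of the 9 genes, and not in this BAX-like or the BNIP3-like gene. Bcl-2-like protein 1 made up 5.35% to 13% of the family's summed level per length in controls, 17.6% to 27.2% in BAPN and 10.5% to 13.1% in recovery, and A1-like was the more abundant in each group mean.

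**Figure D4:**
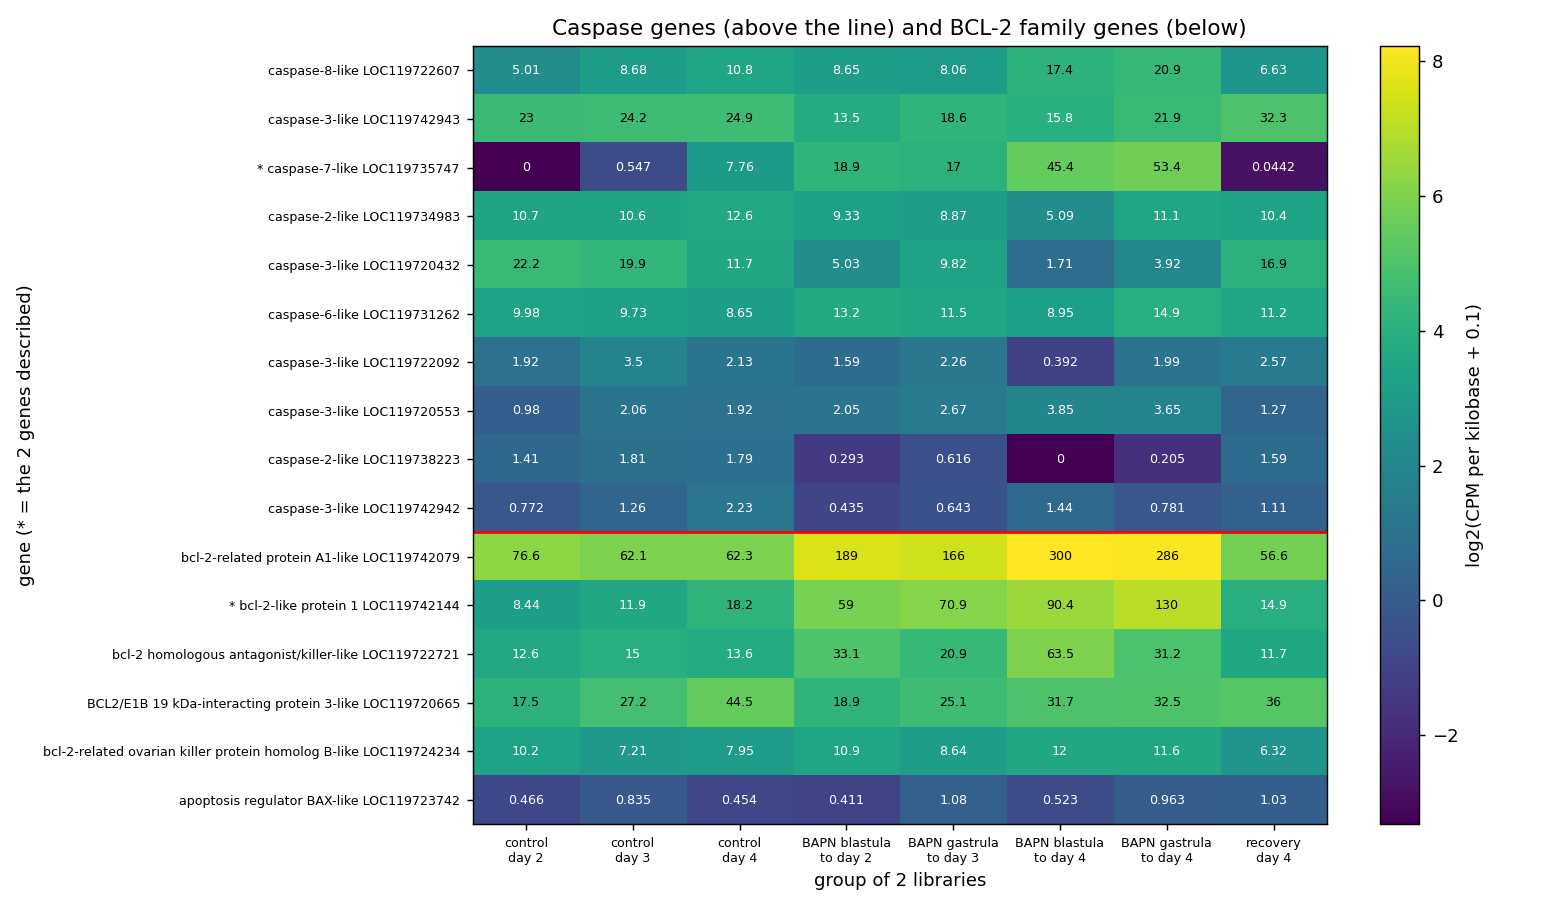
Group mean level per length of the tested caspase genes (above the red line) and BCL-2 family genes (below), as CPM per kilobase printed in each cell and coloured on a log2 scale; asterisks mark the 2 genes described. Caspase-7-like is the caspase row that goes from 0 in day 2 controls to 45.4 and 53.4 CPM per kilobase in the day 4 BAPN groups, the largest caspase values shown, and bcl-2-related protein A1-like is the brightest row.

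The heat map of family levels shows these patterns gene by gene, with several caspase rows fading in BAPN where that of caspase-7-like brightens. Inhibitors of apoptosis bind caspases or keep cells alive through other routes. Of 5 tested, 3 rose and 1 fell. The BIRC3-like gene (LOC119730353) rose by 1.08 ± 0.11, BIRC6-like (LOC119742720) by 0.72 ± 0.08 and BIRC7-like (LOC119730351) by 0.44 ± 0.08. BIRC5-like (LOC119737112), named for survivin, which also serves in cell division, fell by 1.21 ± 0.15.

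Of 6 mitochondrial death factors and apoptosome genes 4 rose and none fell in the mean comparison, beside 28.1% and 30.1% of all genes. Window by window, 2 were called higher in each, and 1 was called lower in blastula to day 4. Scaling by total counts only gave 2 higher and 1 lower for the mean. The calls for the mean also changed when blastula to day 2 replicate 1 was left out. Cytochrome c-like (LOC119744713), which activates the apoptosome once released, rose by 0.84 ± 0.07, and HTRA2-like (LOC119720646), a protease that relieves caspase inhibition, rose by 0.92 ± 0.10. Diablo-like (LOC119741064), an antagonist of the inhibitor proteins, rose by 0.98 ± 0.38 (edgeR adjusted p = 0.03), but lost its call when scaled by total counts only (adjusted p = 0.0921). It was also lost without day 2 control replicate 1, day 3 control replicate 1, either day 4 control, blastula to day 2 replicate 2, gastrula to day 3 replicate 2 or blastula to day 4 replicate 1. AIFM1-like (LOC119728996), named for apoptosis-inducing factor 1, rose by 0.33 ± 0.10, and by 0.10 with an edgeR adjusted p of 0.386 under total counts only. The APAF1-like gene, the scaffold of the apoptosome, did not pass the test at -0.18.

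Death receptors and their adaptors pass on signals from outside the cell. Of 22 tested, 9 rose and 4 fell, or 7 and 5 with total counts only. TNFRSF21-like (LOC119746091) rose by 3.16 ± 0.19, from 1.16 CPM in day 2 controls to 24.1 CPM in blastula to day 2 (group means), and the TRAF2-like adaptor (LOC119720349) rose by 1.81 ± 0.12. Death domain-containing protein 1-like (LOC119745452) fell by 2.69 ± 0.11, and TNFRSF4-like (LOC119727534) by 2.00 ± 0.21. Of 8 engulfment genes, which act when dying cells are taken up, 1 rose and 3 fell (1 and 4 with total counts only): MEGF10 LOC119737265 rose by 1.40 ± 0.17 as a mean, and ELMO1-like LOC119738498 fell by 0.51. For both MEGF10 genes that were called, and for ELMO1-like LOC119719557, the windows differed in sign. ELMO1-like LOC119719557 averaged 9.17 CPM in day 3 controls against 9.73 CPM in gastrula to day 3, and was lower in BAPN in the other windows. MEGF10 LOC119737265 averaged 2.88 against 34.9 CPM at day 2 and 8.84 against 15.5 CPM at day 3, but 23.0 CPM in day 4 controls against 19.9 CPM in blastula to day 4. A second MEGF10 gene, LOC119745978, called lower at -0.66, averaged 3.37 against 5.54 CPM at day 2 and 5.34 against 6.94 CPM at day 3, and was lower in BAPN at day 4, at 1.87 against 16.1 CPM. It kept its call in 5 of 16 fits that each left out 1 library, and ELMO1-like LOC119719557, called lower at -0.57, kept it in 12 of 16. The engulfment genes called lower dropped to 1 without gastrula to day 3 replicate 1, blastula to day 4 replicate 1 or day 4 control replicate 2, while 2 were called higher without day 2 control replicate 1. Of 9 genes named programmed cell death proteins 3 rose and 4 fell, led by the PDCD6-interacting protein-like gene (LOC119744752), an adaptor of membrane budding and repair, which rose by 1.93 ± 0.08. The DNA fragmentation factor subunit beta-like gene did not pass the test at 0.24, and was called higher without gastrula to day 3 replicate 2.

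**Figure D5:**
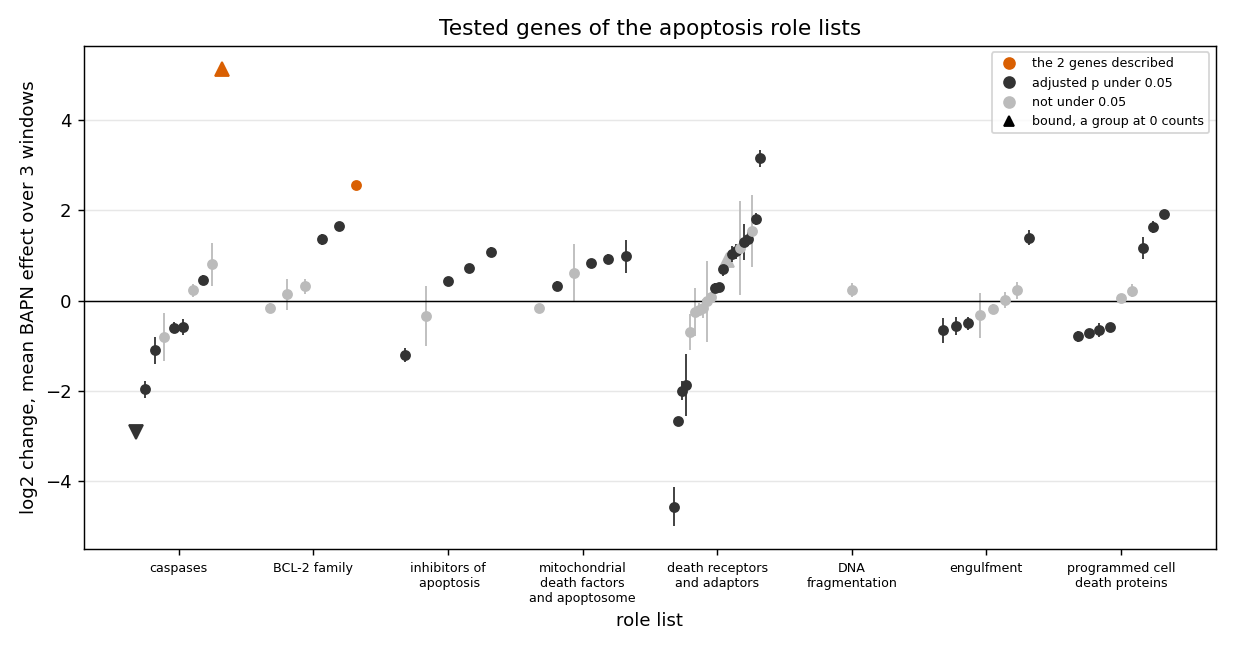
Log2 change in the mean BAPN comparison for each tested gene of the apoptosis lists, 1 point per gene with 1 SE, sorted within its list; dark points have an adjusted p under 0.05 and triangles are bounds where a group had 0 counts. The lists of caspases and of death receptors and adaptors spread to both sides of zero, while the 3 called genes of the BCL-2 family lie above it.

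As the plot of role lists shows, both genes described are the largest change in their own list, which is how they came to be chosen. In recovery against day 4 controls, 2 of the 67 tested genes of all lists were higher and 12 lower. Of all 17519 genes, 1274 were higher and 1515 lower, or 15.9% called. Without the 2 genes chosen, 2 of 65 were higher and 11 lower. In caspases the counts were 0 higher and 2 lower, caspase-7-like itself among the lower. In the BCL-2 family they were 0 and 0, and in the inhibitors of apoptosis 0 and 0. None of the 67 was called for dose by edgeR.

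Genes whose log2 CPM followed each gene most closely over the 16 libraries were sought among 10726 named genes with a mean log2 CPM of at least 1. The 5 most like caspase-7-like were an MRP4-like efflux pump gene (LOC119734515, Pearson r = 0.986), a MID1IP1-B-like gene (LOC119723389, 0.979), a ceramide transfer protein-like gene (LOC119746458, 0.977), a GADD45 beta-like stress gene (LOC119737828, 0.975) and a SNAP25-like gene (LOC119744397, 0.974). The MRP4-like gene averaged 38.5 CPM in day 2 controls, 572.9 CPM in day 4 controls, 761.7 CPM in blastula to day 2 and 55.4 CPM in recovery. GADD45 beta-like averaged 10.2, 36.2, 85.6 and 8.68 CPM in the same groups. Like caspase-7-like, both had higher means in day 4 controls than in recovery. They were picked by correlation over libraries that include these groups, so a shared order is partly built into the choice.

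The 5 most like bcl-2-like protein 1 were RNF34-like (LOC119726946, 0.992), a ubiquitin ligase gene, the EPG5 homolog (LOC119729610, 0.987), which acts in autophagy, stomatin-like (LOC119737318, 0.986), ZFYVE26-like (LOC119743285, 0.986) and optineurin-like (LOC119726768, 0.984), an autophagy receptor. Optineurin-like averaged 11.4 CPM in day 2 controls, 123.4 CPM in blastula to day 2, 288.7 CPM in gastrula to day 4 and 17.2 CPM in recovery. These points share libraries and treatment, and ranked by Spearman correlation none of either set of 5 was among the top 5.

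The nearest annotated genes were measured as well. Beside caspase-7-like, an SLC38A10-like transporter gene (LOC119735363), 4786 bases away, stayed between 58.9 and 89.0 CPM in all libraries, and uncharacterized LOC119735749, 797 bases away, stayed at or under 2.02 CPM. Both uncharacterized neighbours of bcl-2-like protein 1 (LOC119740459 and LOC119740605) were at or under 4.16 CPM, and the nearer of them, LOC119740605 on the same strand 1556 bases away, averaged 0.0844 CPM in day 2 controls, 1.26 CPM in blastula to day 2 and 0 in recovery. A second gene named caspase-7-like (LOC119735823), 86341 bases away on the same scaffold, had 0 counts in every library, and a caspase-6-like gene next to it (LOC119735824) had 9 in all. How reads that match several copies were counted is not given in the sources used here.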

How the data were processed

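For 16 stranded paired-end polyA libraries, the authors deposited 1 table of raw counts over 27818 genes. Which aligner, counting program and strand setting made it is not given in the sources used here. Starts and ends of all 27818 genes equal those of Pmin_3.0, whose table gave the product names. Protein and promoter sequences were not analysed here. Of all genes, 4125 had no count and 17519 passed edgeR's filter (minimum count 10, minimum total count 15). Libraries were scaled by TMM, and 1 edgeR 4.0.16 quasi-likelihood model (R 4.3.3; robust, 8 group means, 8 residual degrees of freedom) was fitted to all 16 libraries, with Benjamini-Hochberg adjustment over 17519 genes. Dose was fitted in the 10 libraries that received BAPN with group as a term. Log2 CPM uses a prior count of 2. A group at 0 counts was set to a floor of 3 counts over the group, which covers counting error only, and intervals on recovery ratios are 95% exact binomial ones. Alternatives were DESeq2 1.42.0, other scalings, no filter, the replicate block and leaving out each library.

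Both genes were chosen from earlier results of these data, and the lists and the comparisons were written with those results known. Role genes named are both genes and up to 4 called genes per list whose mean log2 CPM reached 1 or more, by the largest absolute mean change; caspase-8-like, the caspase-2-like gene and genes past no test were added after their values were seen. For likeness, the 5 highest Pearson correlations were named, and the nearest annotated gene on each side was taken as neighbour. A chi-square comparison found the 2 libraries of each group to differ by more than sampling noise. The words for the p53 family matched no gene. Products taken by mistake were removed by name.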

Additional observations from a re-analysis of the deposited data

Results flagged for a closer look

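For caspase-7-like, the BAPN difference of day 4 minus that of day 2 after the blastula start was -5.39 on the log2 scale with the day 2 controls set to the floor of 3 counts, a bound that covers counting error only. It ranged from -5.63 to -4.28 when 1 library at a time was left out. It is listed because the term for this difference passed the threshold of the edgeR model. That is no support for a change: the day 2 comparison was among those the gene was chosen on, and the day 2 controls held 0 counts. The levels behind it were 0 against 32.8 CPM at day 2 and 13.5 against 78.7 CPM at day 4.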

How the results depend on the processing

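Over 402 recomputed values of the tested comparisons of both genes, 392 kept their side of the threshold, 9 lost and 1 gained a call. Every change of call was in bcl-2-like protein 1, the gain in its day 4 minus day 2 value. No value called in either fit changed sign. Differences called in neither fit could do so. That of bcl-2-like protein 1 for dose, 0.031, reached -0.03 with 1 library left out. Of 525 recomputed values for the named role genes, 500 kept direction and side of the threshold, and 25 lost the call. With total counts only, caspase-7-like gave 4.92 for the mean BAPN difference and 7.69 at day 2 (both bounds), and bcl-2-like protein 1 gave 2.34 for the mean, 2.36 for gastrula to day 3 and 0.44 for day 4 against day 3 controls. Genes called for dose, 4 in all, became 2 with total counts only, 125 without the filter and 55 with DESeq2. With day 3 in place of day 4 controls, an alternative chosen after seeing the data, recovery differed in 114 genes. Of the 5 genes most like caspase-7-like 0 were shared under Spearman and 3 with a prior count of 0.5, and of those most like bcl-2-like protein 1 0 were shared under Spearman. The cause of these shifts was not tested.

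Leaving out 1 library at a time gave ranges of 4.79 to 5.24 for the mean and 6.86 to 7.96 for the day 2 difference of caspase-7-like, and of -5.63 to -4.28 for its day 4 minus day 2 value and 1.73 to 3.04 for day 3 against day 2 controls, where 1 day 2 control less raises the floor. For bcl-2-like protein 1 the ranges were -0.74 to -0.26 for day 4 minus day 2, 0.27 to 0.75 for day 3 against day 2 controls, 0.48 to 0.74 for day 4 against day 3 controls and -0.67 to -0.40 for the blastula against the gastrula start. Genes called ranged from 1340 to 3388 for day 3 against day 2 controls, 1205 to 2826 for day 4 against day 3 controls, 1262 to 3095 for the blastula against the gastrula start, 1559 to 3247 for recovery against day 4 controls, 956 to 2283 for the gastrula start over time and 0 to 14 for dose. A group left with 1 library is assumed to vary like the others.

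The labels name a control for 6 treated libraries, across replicate numbers at day 4, without saying what a pair shares. Deviations of treated libraries and their named controls correlated at 0.013, -0.007 and 0.023 at day 2, 3 and 4. With these pairs as a replicate block, calls went from 10207 to 9577 for the mean, 7264 to 6597 for blastula to day 2, 5633 to 5132 for gastrula to day 3 and 9054 to 8284 for blastula to day 4, and no recomputed call of the named role genes was lost. Depth limits caspase-7-like in recovery and young controls, where counts of 0 to 18 per library set each ratio.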

Other observations

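TNFRSF4-like (LOC119727534) shared with caspase-7-like a high level in day 4 controls and a low one in recovery, though not its level in BAPN. Its group means were 8.74 CPM in day 2 controls, 15.4 CPM in day 3 controls, 110.2 CPM in day 4 controls, 7.07 CPM in recovery and 3.41 to 9.47 CPM in the groups collected in BAPN. MEGF10 LOC119745978 had 16.1 CPM in day 4 controls against 3.97 CPM in recovery and 3.37 CPM in day 2 controls. MEGF10 LOC119737265 had 23.0, 6.14 and 2.88 CPM in those groups and 34.9 CPM in blastula to day 2. These genes were picked after their values were seen, and no test of their likeness was run. Of the 17 caspase genes, 6 had no count in any library, as did 2 of the 9 BCL-2 family genes.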
